A study of Mus musculus with 6 samples.

Results

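The Notch pathway was followed through 38 genes chosen by name among 55416 genes in the files: 4 receptors, 6 ligands, 6 processing enzymes, 11 modifiers, 4 genes of the nuclear complex and 7 target or feedback genes. Their RNA was counted in cells that the labels call oligodendrocyte precursors, the dividing progenitors of myelin-forming cells, purified from mouse cortex at postnatal day 11. In 3 samples, called cKO here, the genotype was Pdgfra-Cre:Ift88 fl/fl; RosaEYFP. In the other 3, called control, it was Pdgfra-Cre:Ift88 fl/wt; RosaEYFP, so Cre, the reporter and a floxed copy of Ift88 were present in every sample and the groups differ in the remaining copy. The Ift88 protein carries cargo along the primary cilium, which does not form without it, and the Pdgfra promoter that drives Cre is active in precursors and in some other cells. A sample is a pool of 4 to 6 mice, and the spread between samples is a spread between pools.

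Notch receptors are cut by ligand binding on a neighbouring cell, first by ADAM proteases and then by the γ-secretase complex. The freed intracellular domain enters the nucleus, joins RBPJ and a Mastermind coactivator and switches on Hes and Hey repressor genes. In the oligodendrocyte lineage, as background, Notch signalling is known for holding precursors in the progenitor state, and Jagged1 and Delta-like proteins on neighbouring cells act as its ligands.

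RBPJ binds DNA with a core of TGGGAA, so the members' promoter windows were searched for it; Hes1, Hey1 and Heyl have no window in the table. RefSeq windows (build GRCm38.p6, 250 bases before to 50 after a gene's start) were found for 31 of the 38 members, as 40 windows. The core on either strand was present in 27.5% of these windows, against 25.6% of all 32851 windows. The longer form GTGGGAA, which contains the core, was present in 12.5% of the members' windows and 6.38% of all windows. It occurred at least 2 times in a window in 2 members, Hes5 and Hey2, and in 0.256% of all windows. Both windows are shown because these target genes carry 2 separate matches while their measured levels were low. In Hes5 the matches lie at bases 25 to 31 and 168 to 174 of the window. In Hey2 they lie at bases 44 to 50 and 247 to 253. Capitals mark GTGGGAA or its reverse complement TTCCCAC, and each window is written 5′ to 3′ on the gene's strand.
Hes5, chr4:154960673-154960972, plus strand: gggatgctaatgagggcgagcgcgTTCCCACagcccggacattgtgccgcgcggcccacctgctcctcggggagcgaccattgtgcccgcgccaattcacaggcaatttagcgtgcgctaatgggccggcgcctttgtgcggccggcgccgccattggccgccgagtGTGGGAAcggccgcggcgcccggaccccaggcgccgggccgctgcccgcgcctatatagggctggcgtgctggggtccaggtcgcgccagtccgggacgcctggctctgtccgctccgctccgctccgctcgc
Hey2, chr10:30842734-30843033, minus strand: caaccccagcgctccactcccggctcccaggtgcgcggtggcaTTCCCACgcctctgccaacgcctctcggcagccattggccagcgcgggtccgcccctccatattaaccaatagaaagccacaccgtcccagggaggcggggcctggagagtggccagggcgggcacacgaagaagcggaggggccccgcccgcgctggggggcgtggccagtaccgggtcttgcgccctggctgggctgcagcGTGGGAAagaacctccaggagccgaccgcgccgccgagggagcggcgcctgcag
The Nrarp window and both Hes6 windows held no match to the core. E-box letters (CANNTG), which many basic helix-loop-helix factors bind, were present in 65% of the members' windows and 72.3% of all windows. A match is a description of letters and not a binding site.

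Reads came from the 3′ ends of transcripts, so the level used here, CPM (counts scaled to the total of a library), does not depend on transcript length. Reads can still be lost where a 3′ end overlaps another gene, as over 82.8% of the last 500 exon bases of Notch1. Levels of different genes therefore compare only roughly. Total counts were 13909236, 568509 and 11773548 in cKO replicates 1 to 3 and between 12756650 and 13652035 in the controls. In cKO replicate 2, 3651 genes had a count, against 14047 to 16252 in the other 5 libraries, and its log2 CPM correlated with the other cKO libraries across tested genes at r = 0.354 and 0.399, against 0.753 to 0.764 among the control pairs. Results are therefore given with and without that library. For counting error only, a count of 0 allows a level of 5.28 CPM in cKO replicate 2 and of 0.216 to 0.255 CPM in the others. Ift88 itself had 1, 0 and 305 counts in cKO and 143, 32 and 167 in control libraries, and the labels do not give the floxed exons, so a 3′ tag does not check the genotypes. Of the defining precursor genes, Sox10 had 0 counts in every library and Olig2 had 67 counts in cKO replicate 3 and 0 elsewhere, and Pdgfra, the gene whose promoter drives Cre, had 155, 0 and 121 counts in cKO and 0, 59 and 56 in control libraries. Of 12 precursor markers, 4 were at 0 in all of the 5 deeper libraries and 2 had at least 20 counts in all of them, so the markers do not show the labelled cell type throughout. The neuron markers, 12 genes, summed to 2172 to 8851 CPM in cKO and 2370.3 to 7629 CPM in control libraries, and the 12 precursor markers to 7.04 to 194 and 208 to 472 CPM. The 7.04 CPM came from cKO replicate 2. Most of the precursor sum in the 5 deeper libraries was Ptprz1 and C1ql1. Ptprz1 had 143, 1.76 and 116 CPM in cKO and 215, 160 and 53.9 CPM in control libraries. C1ql1 had 20.3, 1.76 and 29.1 CPM in cKO and 92.0, 297 and 135 CPM in control libraries. Of 4 precursor markers tested with all libraries, 2, Pdgfra and Cspg4, had a positive log2 fold change.

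Notch pathway RNA was detected broadly but unevenly. Of the 38 members, 28, 12 and 32 had a count in cKO replicates 1 to 3, and 32, 29 and 31 in control replicates 1 to 3. Had the deeper libraries held only as many counts as cKO replicate 2, 24.9 to 31.2 members would be expected with a count. In the 5 deeper libraries, 19 members had at least 20 counts everywhere, and 24 averaged at least 10 CPM. Absence was patchy between replicates: of 190 values in these libraries, 38 were 0, 12 lay between 1 and 19 counts and 140 at 20 counts or more. Between the controls, 9 members were at 0 in a replicate while another replicate held 20 counts or more. Among the members tested for a group difference with all libraries, 5 showed this, or 17.2%, against 13.9% of all genes tested.

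**Figure D1:**
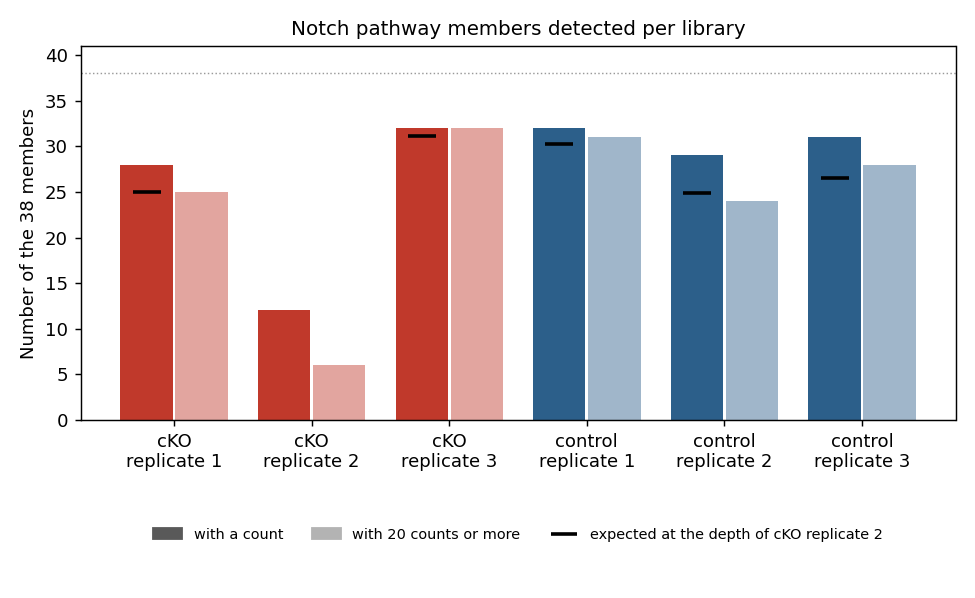
Number of the 38 Notch pathway members with a count (dark bars) and with 20 counts or more (light bars) in each library, cKO in red and control in blue. Black dashes give the number expected with a count at the total of cKO replicate 2, which itself held 12 members against 28 to 32 in the others; the dotted line marks 38.

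No member passed the test between cKO and control. In all 6 libraries 29 members could be tested, 0 were higher and 0 lower at an adjusted p under 0.05 (quasi-likelihood test of edgeR, Benjamini-Hochberg adjusted over 12833 genes), with 2 members at an unadjusted p under 0.05. The background was equally sparse: 0.00779% of all tested genes were called higher in cKO and 0.00779% lower, and 2.83% had an unadjusted p under 0.05, against 6.9% of the members. Without cKO replicate 2, 34 members were tested and 0 were called. None of these reached an unadjusted p under 0.05, against 6.09% of 14562 genes, of which 0% were called higher and 0.00687% lower. With limma-voom 0 of the 29 members were called and 2 had an unadjusted p under 0.05. DESeq2 gave an adjusted p for 5 members only (Notch2, Adam10, Psen2, Ncstn and Hes1) and none for the other 24; of the 5, 0 were called, with Notch2 and Psen2 at an unadjusted p under 0.05, while edgeR's 2 were Dtx1 and Maml1. The median log2 fold change of the members was -0.52 with all libraries, beside -0.44 over all genes tested, and 0.04 without cKO replicate 2, beside -0.06. With all libraries, 3 pools a group, standard errors were 0.99 to 2.58 on the log2 scale, which leaves room for changes of several-fold in either direction. Without cKO replicate 2 they ran from 0.28 (Ncstn) to 4.48 (Lfng), so that room differed between members.

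**Figure D2:**
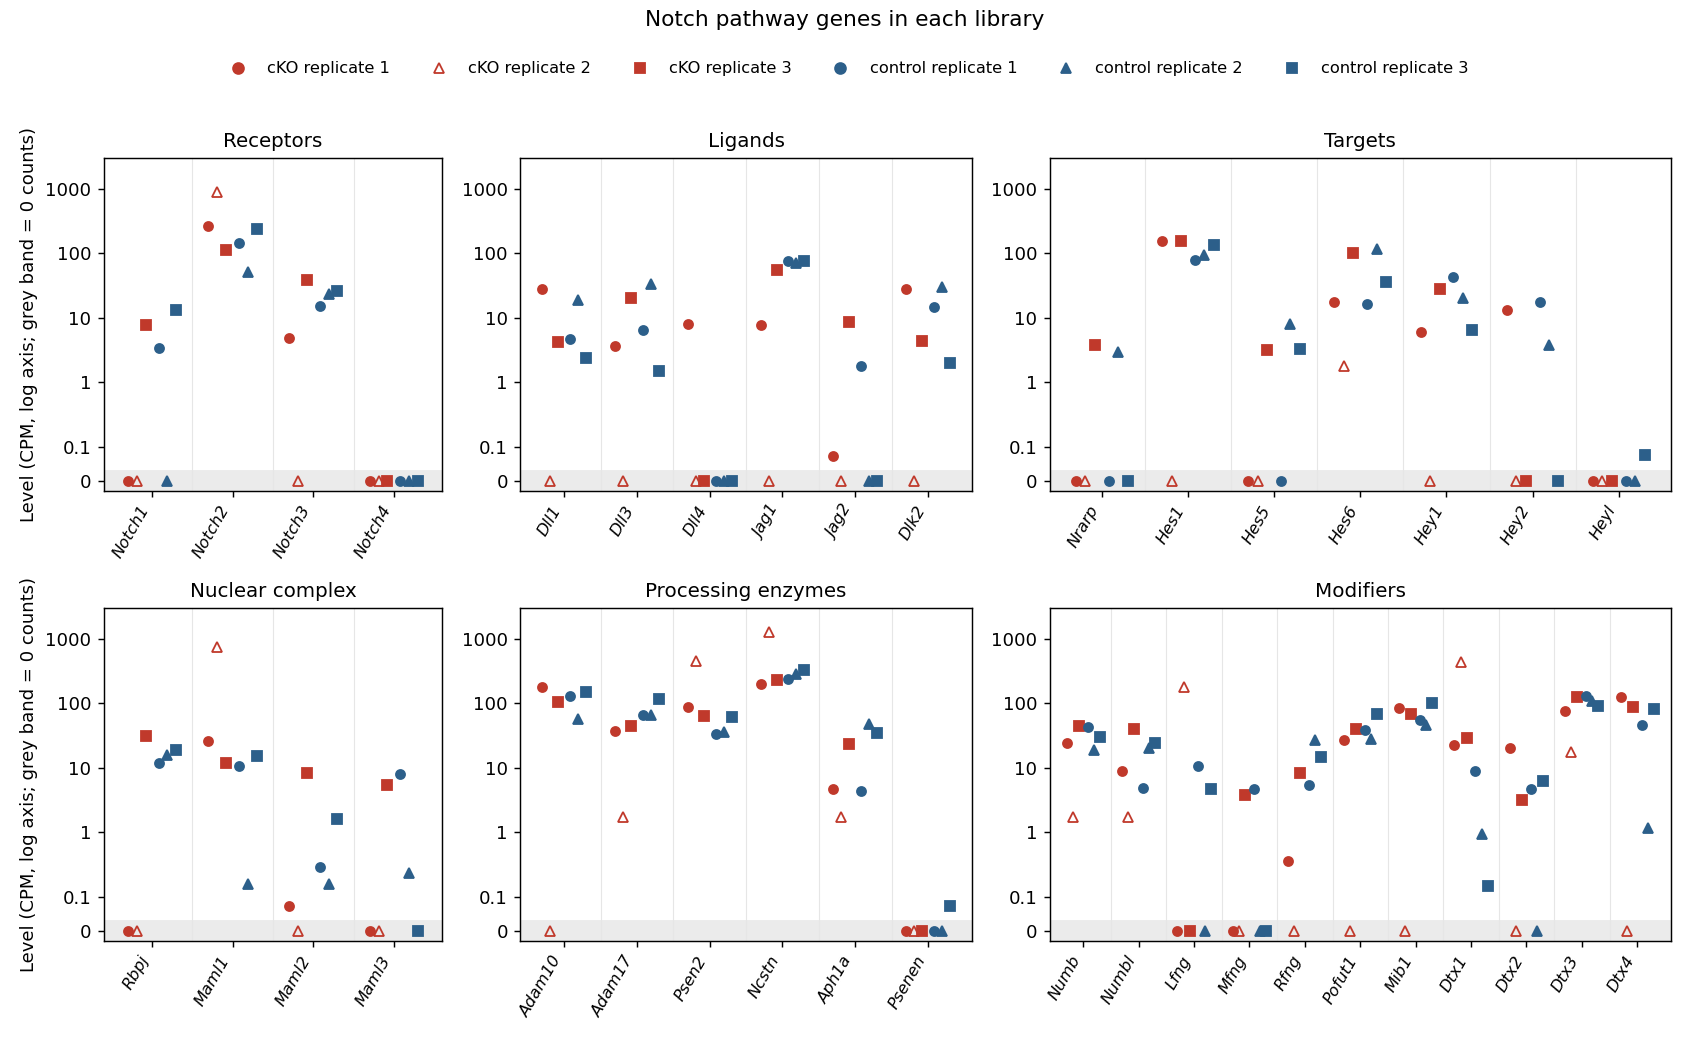
Level of every member in each library in CPM on a log axis, grouped by role, with cKO libraries in red to the left of control libraries in blue; open triangles are cKO replicate 2 and the grey band holds libraries with 0 counts. Notch2, Ncstn, Adam10, Hes1 and Dtx3 lie near or above 100 CPM in most deeper libraries, while Notch4, Heyl and Psenen lie at or near 0 throughout.

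Among the receptors, which receive the signal at the cell surface, Notch2 had the highest measured level in every library. Notch2 (ENSMUSG00000027878, GRCm39 chromosome 3, 97920843 to 98057677) had 265, 887 and 112 CPM in cKO and 144, 51.0 and 239 CPM in control libraries. It made up 70.7% to 100% of all receptor CPM in cKO and 68.8% to 88.4% in control libraries. The groups overlapped, and the log2 fold change was 1.51 (SE 1.21, edgeR adjusted p = 0.9999) with all libraries and 0.44 (SE 0.63, edgeR adjusted p = 0.9999) without cKO replicate 2. Notch3, the receptor of mural cells of blood vessels and also of neural progenitors, had 4.89, 0 and 38.5 CPM in cKO and 15.3, 23.1 and 26.2 CPM in control libraries. The controls lay close together, while the cKO libraries held both the lowest and the highest value. Markers of mural cells, 11 genes, summed to 1079, 647 and 1374 CPM in cKO and 871, 2386 and 2716 CPM in control libraries, most of it from Acta2. Of the 11, 3 had at least 20 counts in all of the 5 deeper libraries and 2 were at 0 in all of them. Among the defining markers, Pdgfrb had 24.1, 0 and 10.8 CPM in cKO and 0, 12.1 and 7.96 CPM in control libraries, and Rgs5 had 67.9, 0 and 42.4 CPM in cKO and 9.74, 0.0784 and 222 CPM in control libraries. The part of such cells in the Notch3 level was not tested.

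Notch1, the founding receptor of the family in neural progenitors, was present in some libraries and at 0 in others of both groups. It had 0, 0 and 92 counts in cKO and 47, 0 and 181 in control libraries. Of the last 500 exon bases of Notch1, 82.8% are shared with other annotated genes on the opposite strand, and reads that touch exons of 2 genes are left uncounted when strand is not used, so its level may be understated. Notch4, a receptor of endothelial cells, had 0 counts in all 6 libraries. Endothelial markers were likewise scarce: 7 of 12, Cdh5 and Flt1 included, were at 0 in all of the 5 deeper libraries, and the list summed to 0 to 90.6 CPM in cKO and 2.12 to 55.5 CPM in control libraries.

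Of the ligands, presented by the signal-sending cell, Jag1 was the one whose groups did not overlap. Jag1 (ENSMUSG00000027276, GRCm39 chromosome 2, 136923376 to 136958564), which encodes Jagged1, had 7.69, 0 and 54.4 CPM in cKO and 74.9, 70.3 and 75.7 CPM in control libraries. Every cKO library lay below every control, and the controls were nearly level at 73.6 ± 2.89 CPM, against 20.7 ± 29.5 CPM in cKO (SD, n = 3 each). The test did not call it, with a log2 fold change of -1.83 (SE 1.78, edgeR adjusted p = 0.9999) and of -1.26 (SE 0.77, edgeR adjusted p = 0.869) without cKO replicate 2. Its 54.4 CPM in cKO replicate 3 were much nearer to the controls than to the 7.69 CPM in cKO replicate 1. Without cKO replicate 3 the log2 fold change of Jag1 moved to -4.08.

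The Delta-like ligands varied as much within groups as between them. Dll1, a ligand made by newly forming neurons, had 27.9, 0 and 4.25 CPM in cKO and 4.61, 18.7 and 2.36 CPM in control libraries. Dll3, a family member that acts mainly inside the cell, had 3.59, 0 and 20.5 CPM in cKO and 6.45, 32.9 and 1.47 CPM in control libraries. Dlk2, a Delta-like protein without the domain that classical ligands use to bind Notch, had 27.4, 0 and 4.33 CPM in cKO and 14.6, 30.0 and 1.99 CPM in control libraries. For all 3 genes the groups overlapped. Control replicate 2 was the highest control and control replicate 3 the lowest for each of them. Jag2, the second Jagged ligand, had 1, 0 and 101 counts in cKO and 24, 0 and 0 in control libraries. Dll4, the main endothelial ligand, had 111 counts in cKO replicate 1 and 0 in the other 5 libraries.

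Among the genes that cut the receptor, 1 sheddase was lower and 1 presenilin higher in every cKO library than in any control. Adam17 (ENSMUSG00000052593, GRCm39 chromosome 12, 21373510 to 21423633), a membrane protease that can shed the Notch ectodomain, had 36.6, 1.76 and 44.3 CPM in cKO and 64.7, 65.5 and 117 CPM in control libraries. The groups did not overlap, at 27.6 ± 22.7 against 82.5 ± 30.1 CPM (SD, n = 3 each). The fitted log2 fold change was -1.55 (SE 1.78, edgeR adjusted p = 0.9999), and -1.003 (SE 0.46, edgeR adjusted p = 0.767) without cKO replicate 2. Iah1, on the other strand, covers 62.2% of the last 500 exon bases of Adam17, so reads there could be lost or misplaced. Adam10, the sheddase that acts in ligand-driven signalling, had 180, 0 and 103 CPM in cKO and 130, 56.7 and 150 CPM in control libraries, and the groups overlapped.

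Of the γ-secretase subunits, Psen2 and Ncstn were the ones with at least 20 counts in cKO replicate 2. Psen2 (ENSMUSG00000010609, GRCm39 chromosome 1, 180054569 to 180091003), a catalytic presenilin, had 88.6, 457 and 64.4 CPM in cKO and 34.0, 35.8 and 60.5 CPM in control libraries. Every cKO library lay above every control, the closest pair being 64.4 CPM in cKO replicate 3 and 60.5 CPM in control replicate 3. It was not called, with a log2 fold change of 2.18 (SE 1.68, edgeR adjusted p = 0.9999) and of 0.85 (SE 0.47, edgeR adjusted p = 0.808) without cKO replicate 2. Ncstn, which encodes the substrate-binding subunit nicastrin, had 198, 1281 and 232 CPM in cKO and 234, 285 and 327 CPM in control libraries. Its log2 fold change was 0.96 (SE 0.99, edgeR adjusted p = 0.9999) with all libraries and took the opposite sign, -0.38 (SE 0.28, edgeR adjusted p = 0.950), without cKO replicate 2. In that comparison the cKO values lay just below all controls. Aph1a, a scaffold subunit, had 4.67, 1.76 and 23.4 CPM in cKO and 4.39, 47.6 and 34.9 CPM in control libraries, and Car14 covers 84.8% of its last 500 exon bases. Psenen, the smallest subunit, had 1 count in control replicate 3 and 0 elsewhere, although the complex needs it, so a count of 0 does not show absence of the RNA.

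**Figure D3:**
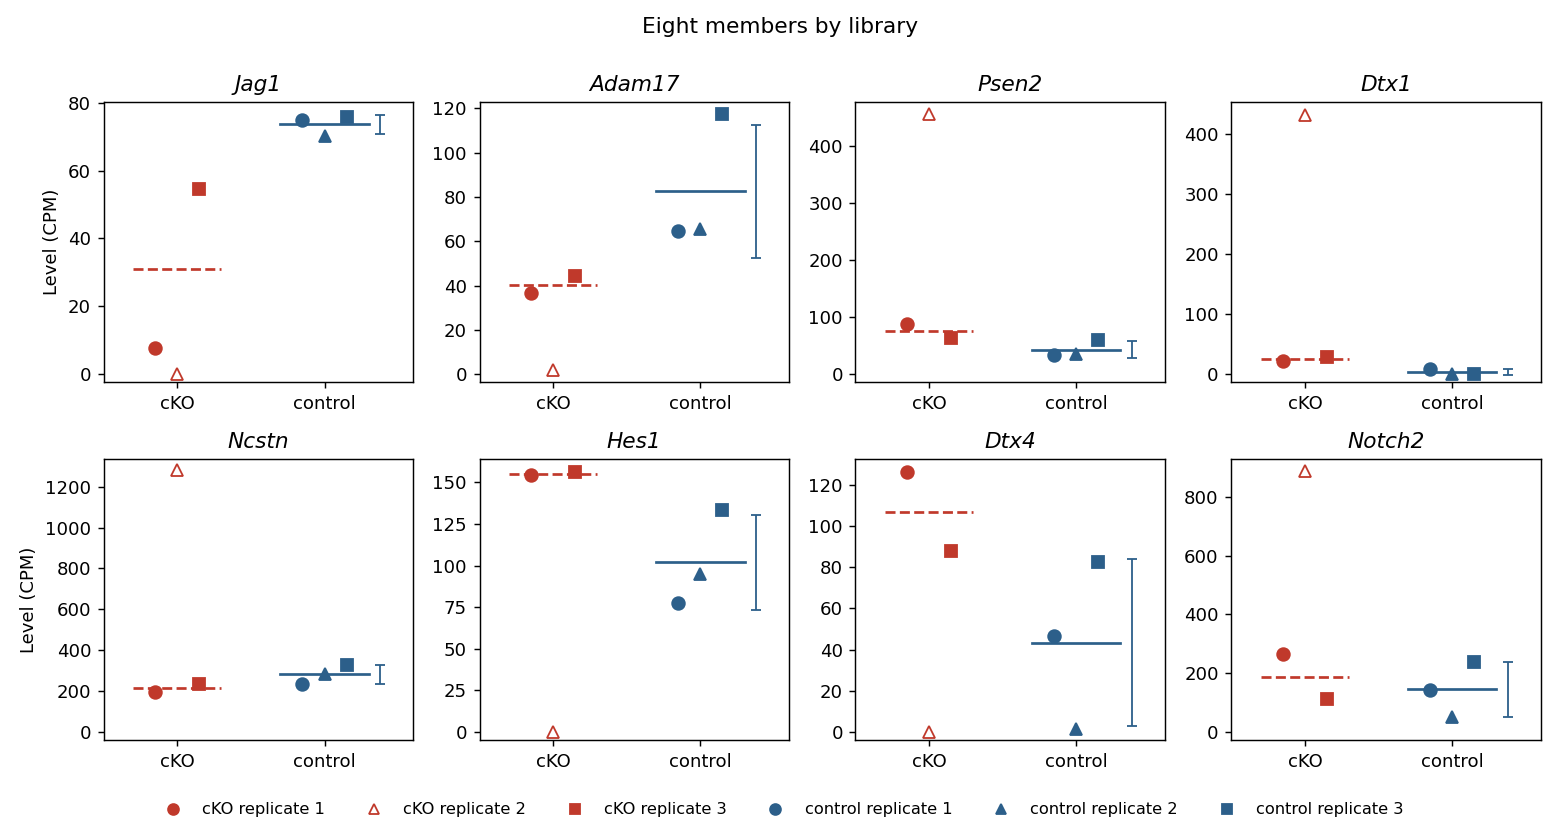
Levels in CPM on linear axes of 8 members, cKO (red) left of control (blue). Points are libraries, open triangles cKO replicate 2, dashed red lines the mean of cKO replicates 1 and 3, blue lines and bars the control mean and SD (n = 3). Jag1 and Adam17 lie lower and Psen2 and Dtx1 higher in each cKO library than in any control, and cKO replicate 2 lies far from the other cKO libraries for most of the 8.

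Modifiers, which set how well a receptor or ligand works, included Dtx1, whose fitted difference was the largest among members with all 6 libraries but not without cKO replicate 2. Dtx1 (ENSMUSG00000029603, GRCm39 chromosome 5, 120818267 to 120849992), a Deltex E3 ligase that binds the Notch intracellular domain, had 22.9, 433 and 29.0 CPM in cKO and 8.94, 0.941 and 0.147 CPM in control libraries. All cKO libraries lay above all controls, at 162 ± 235 against 3.34 ± 4.86 CPM (SD, n = 3 each), or 26.0 CPM on average in cKO replicates 1 and 3. Its log2 fold change was 5.49 (SE 2.11, unadjusted p = 0.00939, edgeR adjusted p = 0.9999), and 2.92 (SE 1.75, edgeR adjusted p = 0.861) without cKO replicate 2. Behind the low control values stood 122, 12 and 2 counts.

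The other Deltex genes did not share that pattern. Dtx4 had 126, 0 and 87.8 CPM in cKO and 46.7, 1.18 and 82.3 CPM in control libraries, and lay above all controls only in cKO replicates 1 and 3. Dtx3, the most even member of the family, had 74.8, 17.6 and 124 CPM in cKO and 130, 107 and 89.5 CPM in control libraries. Dtx2 had 280, 0 and 38 counts in cKO and 65, 0 and 86 in control libraries. The groups overlapped for Dtx2, Dtx3 and Dtx4 when all libraries were used.

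Fringe enzymes extend the sugars on Notch and so shift its choice of ligand, and their RNAs were sparse. Lfng had 0, 103 and 0 counts in cKO and 145, 0 and 64 in control libraries. For Lfng the log2 fold change was 3.46 (SE 1.88, edgeR adjusted p = 0.9999) with all libraries and -9.08 (SE 4.48, edgeR adjusted p = 0.767) without cKO replicate 2, where the cKO count is 0, so the sign rests on that library. Rfng had 5, 0 and 99 counts in cKO and 75, 342 and 200 in control libraries, and Mfng had 45 counts in cKO replicate 3, 64 in control replicate 1 and 0 elsewhere. Pofut1, which adds the first fucose to Notch, had 26.6, 0 and 40.2 CPM in cKO and 39.0, 28.3 and 68.5 CPM in control libraries, so the groups overlapped.

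Genes that act through endocytosis were measured in every deeper library. Mib1, the E3 ligase that makes ligands active by endocytosis, had 84.2, 0 and 67.4 CPM in cKO and 54.8, 45.3 and 101 CPM in control libraries. Numb, an inhibitor of Notch passed unequally to daughter cells, had 24.4, 1.76 and 43.7 CPM in cKO and 42.3, 18.97 and 30.4 CPM in control libraries. Its relative Numbl had 8.91, 1.76 and 39.8 CPM in cKO and 4.91, 20.3 and 24.4 CPM in control libraries. In all 3 genes cKO replicate 2 was the lowest library and the groups overlapped. Without it, the log2 fold changes were 0.21 (SE 0.47) for Mib1, 0.16 (SE 0.65) for Numb and 0.56 (SE 1.07) for Numbl.

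In the nuclear complex, the DNA-binding protein and its coactivators were of low abundance, except for Maml1 in cKO replicate 2. Rbpj had 0, 0 and 31.4 CPM in cKO and 11.7, 15.8 and 18.9 CPM in control libraries. The controls were close together, and the cKO group held 2 libraries at 0 and the highest value. Maml1, a Mastermind coactivator, had 25.9, 742 and 11.98 CPM in cKO and 10.8, 0.157 and 15.0 CPM in control libraries. Its log2 fold change of 4.85 (SE 1.87, unadjusted p = 0.00928, edgeR adjusted p = 0.9999) stood at 1.18 (SE 1.67, edgeR adjusted p = 0.9999) without cKO replicate 2, where the groups overlapped. Maml2 had 1, 0 and 98 counts in cKO and 4, 2 and 22 in control libraries, and Maml3 had 0, 0 and 63 in cKO and 109, 3 and 0 in control libraries.

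Target genes, the usual readout of Notch activity, were led by Hes1. Hes1 (ENSMUSG00000022528, GRCm39 chromosome 16, 29883202 to 29886614), a repressor of neuronal differentiation genes, had 154, 0 and 156 CPM in cKO and 77.6, 94.6 and 134 CPM in control libraries. The 2 deeper cKO libraries lay above all controls, and cKO replicate 2 lay at 0, below its limit of 5.28 CPM. Its log2 fold change was 0.04 (SE 1.67, edgeR adjusted p = 0.9999) in all libraries and 0.63 (SE 0.34, edgeR adjusted p = 0.798) without cKO replicate 2. Hes5, the target most tied to Notch in neural progenitors, had 0, 0 and 37 counts in cKO and 0, 103 and 44 in control libraries. Hey2 had 180, 0 and 0 counts in cKO and 241, 49 and 0 in control libraries. Hes5 and Hey2, whose windows each carry 2 separate matches to GTGGGAA, reached at most 8.07 and 17.7 CPM. Hes1 has no window to set beside them, and a relation of motif to level was not tested.

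The remaining genes grouped with the targets varied between replicates. Hes6, which antagonises Hes1 and is made in differentiating neural cells, had 17.7, 1.76 and 99.0 CPM in cKO and 16.2, 116 and 36.1 CPM in control libraries. Hey1 had 5.97, 0 and 27.9 CPM in cKO and 42.3, 20.4 and 6.56 CPM in control libraries. The groups overlapped for both genes. Nrarp, a feedback inhibitor switched on by Notch, had 44 counts in cKO replicate 3, 37 in control replicate 2 and 0 elsewhere, and Gm38287 on the other strand covers all of its last 500 exon bases. Heyl had 1 count in control replicate 3 and 0 elsewhere. Astrocyte and radial glia markers, cells in which Hes1 and Hes5 are also made, summed to 2612, 871 and 2813 CPM over 12 genes in cKO and 2729, 7236 and 5269.5 CPM in control libraries. Most of this in the 5 deeper libraries was Vim, with 1769, 186 and 2149 CPM in cKO and 1895, 5947 and 4493 CPM in control libraries. Of 10 markers tested with all libraries, 1 had a positive log2 fold change, Slc1a3. It had 454, 682 and 294 CPM in cKO and 248, 224 and 66.3 CPM in control libraries. The part of such cells in the target levels was not tested.

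By role, sums of CPM in cKO replicate 2 stood apart from those of the other libraries. Receptor sums were 270, 887 and 158 CPM in cKO and 162, 74.2 and 278 CPM in control libraries. Ligand sums were 74.6, 0 and 92.1 CPM in cKO and 102, 152 and 81.5 CPM in control libraries. In cKO replicate 2 no ligand had a count and the targets summed to 1.76 CPM, while receptors, processing enzymes (1741 CPM), modifiers (635 CPM) and the nuclear complex (742 CPM) exceeded every other library. In cKO replicates 1 and 3 the processing enzymes summed to 508 and 467 CPM, and control libraries gave 467, 491 and 689 CPM. The targets summed to 191 and 290 CPM in these cKO libraries and to 154, 245 and 180 CPM in control libraries. These target sums include Hes6, which antagonises Hes1, at 17.7 and 99.0 CPM and at 16.2, 116 and 36.1 CPM. As bulk values, the sums by role cannot tell fewer cells of a type from less RNA per cell.

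Few members had groups that did not overlap. With all 6 libraries, 2 of 29 members (6.9%), Psen2 and Dtx1, lay higher in every cKO library than in any control, against 1.33% of all genes tested, and 2 (6.9%), Jag1 and Adam17, lay lower, against 11.1%. Without cKO replicate 2, 4 of 34 members (11.8%), Psen2, Dtx1, Dtx4 and Hes1, lay higher, against 13%, and 3 (8.82%), Jag1, Adam17 and Ncstn, lay lower, against 12.6%. Psen2 and Dtx1 were both among the 6 members with at least 20 counts in cKO replicate 2.

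**Figure D4:**
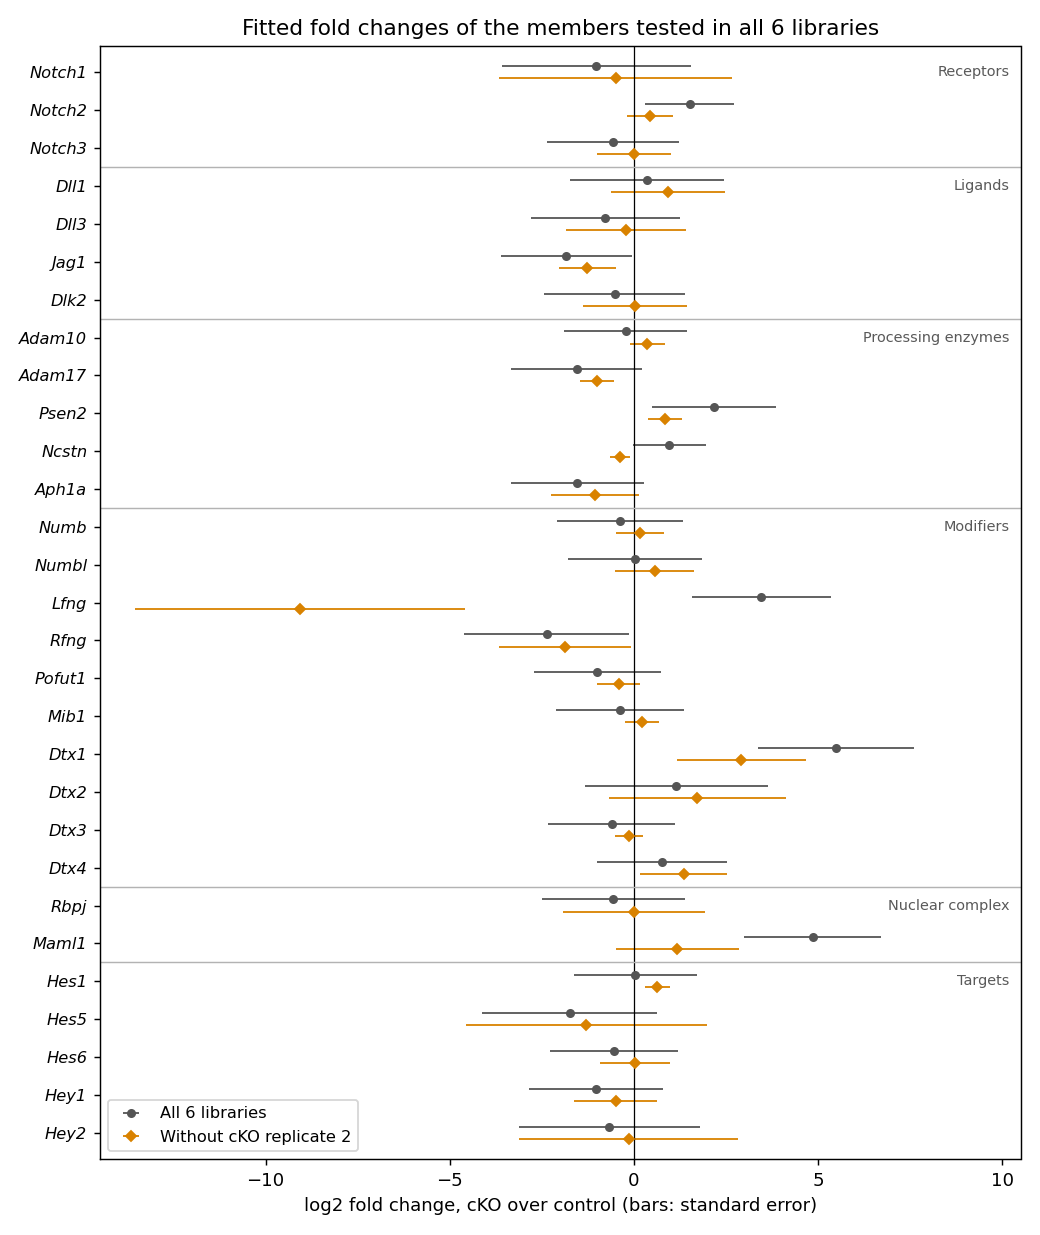
Fitted log2 fold changes, cKO over control, of the 29 members tested in all 6 libraries (grey circles) and without cKO replicate 2 (orange diamonds), with bars of 1 standard error, grouped by role. Without that library most bars shorten and Lfng, Ncstn and 6 others change sign; 0 members passed in either comparison.

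Other genes of the pathway gave the same count of calls. Of 40 further pathway genes, among them corepressors and endocytic factors, 31 were tested with all libraries and 0 passed (14 with a positive and the others with a negative log2 fold change, median -0.07). Epn1, an epsin of the endocytic machinery that ligands need, had 181, 517 and 139 CPM in cKO and 64.7, 118 and 99.9 CPM in control libraries, with every cKO library above every control. That held for 1.33% of all genes tested, and for 13% without cKO replicate 2. The test gave Epn1 a log2 fold change of 1.52 (SE 1.44, edgeR adjusted p = 0.9999), and of 0.78 (edgeR adjusted p = 0.767) without cKO replicate 2.

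Proneural and early neuronal genes, a list that includes genes Hes proteins hold down, had 9 of 12 members tested and 0 passed. Their median log2 fold change was -1.78 with all libraries, beside -0.44 over all genes, and -1.25 over 11 tested members without cKO replicate 2, beside -0.06. Neurod1, a later neuronal factor, had 15.3, 1.76 and 29.0 CPM in cKO and 38.4, 179 and 6.41 CPM in control libraries, and the groups overlapped. Neurog2 had 0, 0 and 3.40 CPM in cKO and 6.52, 13.5 and 8.40 CPM in control libraries, without overlap. Every cKO library lay below every control for 11.1% of all genes tested. Atoh1 went the other way, with 20.1, 0 and 1.78 CPM in cKO and 0 in all controls.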

How the data were processed

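The deposited files hold raw read counts per gene from QuantSeq 3' FWD libraries, made by the authors with featureCounts 2.0.0 on exons of Ensembl release 104 (GRCm39), per the file headers. The command sets neither strand nor multi-mapping options. Per the submitters' processing notes, STAR, FastQC and DESeq2 were also used; the step of each is not given. Identifiers were matched to symbols (52083 of 55416), and all 38 members were found.

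CPM used total counts. Genes kept by filterByExpr were tested with TMM, glmQLFit (robust) and glmQLFTest in edgeR 4.0.16 (R 4.3.3), two-sided, cKO against control, 3 samples each, no covariate. The standard error is the log2 fold change over the square root of F. Alternatives used DESeq2 1.42.0, limma 3.58.1, other scalings and filters, a replicate block, an adjusted p of 0.10 and leaving out each library. Figures used matplotlib 3.10.9. Members and lists were chosen with earlier results of these data known. Values in every library are given for members averaging at least 10 CPM over 5 libraries, other than cKO replicate 2, and counts for most others. Of the 2 further lists, genes with the 2 smallest p were selected, some of which are not reported here; Sox10, Olig2, Pdgfra, Cdh5, Flt1, Acta2, Pdgfrb and Rgs5 were chosen after their values were seen. Overlap with other genes was taken over the last 500 exon bases in the files' coordinates.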

Additional observations from a re-analysis of the deposited data

How the results depend on the processing

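The count of members past the test stayed at 0 under RLE and upper-quartile scaling, limma-voom, no filter, at least 5 CPM in 3 samples, the replicate block, an adjusted p under 0.10 and leaving out each library (0 to 0). DESeq2 called 0 of the 5 members to which it gave an adjusted p, the smallest being 0.0867 for Psen2, and says nothing on the other 24 members; over all genes it gave one to 2191 of 12833. Over all genes 2 passed, against 16 with RLE scaling, 0 with upper-quartile scaling, 5 with DESeq2, 14 with limma-voom, 23 without a filter, 1 with the replicate block, and 1 to 7 leaving out a library (7 without cKO replicate 1, 4 without cKO replicate 3 and 1 without each of the other 4). Scaling moved the median log2 fold change of all genes by 0.16 (RLE) and 0.43 (upper quartile), limma-voom by -0.31 and the block by -0.79. Same-numbered samples deviated together at r = 0.0834, 0.0485 and -0.00668, and differently numbered ones at r = -0.0736 to 0.0224. These small values do not settle whether samples were paired. The numbers were not taken as pairs in the main test.

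Signs of log2 fold changes, none of them called, turned as follows. With upper-quartile scaling they were 0.07 for Adam10, 0.23 for Numb and 0.94 for Dtx3. With limma-voom they were -0.32 for Ncstn, -2 for Lfng and -1.12 for Hes1. With the replicate block they were -0.33 for Numbl, -6.03 for Lfng and -0.91 for Hes1. Leaving out a library gave ranges that crossed 0: -8.88 to 0.59 for Notch1, -1.92 to 1.66 for Dll1, -2.70 to 1.01 for Dll3, -2.71 to 0.38 for Dlk2, -1.13 to 0.37 for Adam10, -0.38 to 1.31 for Ncstn, -1.14 to 0.16 for Numb, -1.53 to 0.56 for Numbl, -9.08 to 4.6 for Lfng, -0.98 to 0.21 for Mib1, -1.06 to 1.74 for Dtx2, -10.38 to 0.04 for Rbpj, -0.39 to 0.63 for Hes1, -2.45 to 0.60 for Hes6 and -9.27 to 1.21 for Hey2. The cause was not tested. Jag1 (-4.08 to -1.26), Adam17 (-2.02 to -1), Psen2 (0.85 to 2.56) and Dtx1 (2.92 to 8.05) kept their sign without any single library. Their groups did not overlap, so leaving out a library could hardly turn the sign. Notch2, Notch3, Aph1a, Rfng, Pofut1, Dtx3, Dtx4, Maml1, Hes5 and Hey1 kept their sign as well. With upper-quartile scaling Psen2 moved to 6.98, Dtx1 to 10.56, Notch2 to 6.23, Ncstn to 5.76, Maml1 to 10.03 and Lfng to 8.71. Depth limits what cKO replicate 2 can show below 5.28 CPM.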
